A study of Mus musculus with 12 samples.

Results

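The 36 genes described here encode the folding machinery of the endoplasmic reticulum (ER) and the sensors that adjust it. They were taken as a named list of gene symbols, with no cut on their measured values. The list was, however, chosen with earlier results of these data known. All 36 were found among the 24054 genes of the table and were among the 14876 genes tested. Polyadenylated RNA was sequenced from primary mouse embryonic fibroblasts (MEF), connective tissue cells cultured from embryos, kept at 3% O2 and 5% CO2 in medium with 10% fetal bovine serum. The 4 genotypes were wild type (WT), Blm-/- (Blm KO), Recql-/- (Recql KO) and Blm-/- Recql-/- (double KO), with 3 libraries each, and the stated aim was to find transcripts that differ from WT when the RecQ-family DNA helicases BLM and RECQL1 are missing. No source used here gives the alleles, the age of the embryos or the embryo or culture behind each library. The p-values therefore describe the spread among these 12 libraries, some of which may be technical.

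Proteins bound for secretion or for membranes enter the ER through the Sec61 channel and fold there with the help of chaperones, sugar-reading lectins and enzymes that form disulfide bonds. Chains that fail to fold are sent back to the cytosol for degradation. When unfolded chains build up, the membrane sensors IRE1 (encoded by Ern1), PERK (Eif2ak3) and ATF6 (Atf6) start the unfolded protein response: IRE1 splices Xbp1 RNA into the form that encodes the active transcription factor, PERK slows translation, and ATF6 is cut to release a transcription factor. Fibroblasts carry a heavy secretory load, since they export procollagen and other matrix proteins, and they also use the collagen chaperones encoded by Serpinh1 and Fkbp10.

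Library totals lay between 47758552 and 59296354 expected counts. The libraries were fibroblast-like in every genotype, with summed levels of 10 fibroblast markers of 21469 to 49811 CPM (counts scaled to library size). The sums differed by genotype. They were 32110 to 34440 CPM in WT, 45969 to 49811 in Blm KO, 21469 to 26372 in the libraries labelled Recql KO and 40833 to 47957 in double KO. Blm RNA was at 18.6 to 21.9 CPM in WT and at 3.18 to 6.99 CPM in the Blm KO and double KO libraries. Recql RNA was at 21.7, 24.3 and 29.8 CPM in the libraries labelled Recql KO, 2 of which lay below the WT range of 25.7 to 29.3 CPM and 1 above it, and it was at 18.7 to 35.6 CPM in double KO. Which part of Recql the allele removes was not given, so these counts do not check the label, and every direction below is that of the libraries as labelled. The libraries labelled Recql KO stood apart from the other 9 on the first principal component, which held 47.3% of the variance (74.1 to 79.7 against -54.4 to -7.02). Y-linked transcripts summed to over 100 CPM in all 3 WT libraries but in only 1 library of each other genotype, Blm KO 1, Recql KO 1 and double KO 2. Xist, an RNA of female cells, was at no more than 12 CPM in these 6 libraries, with 0.152 to 3.08 in WT. It was at 310 to 473 CPM in Blm KO 2 and 3, Recql KO 2 and 3 and double KO 1 and 3. Recql KO 2 also held 28.7 CPM of Y-linked transcripts. The mix of sexes thus differed between WT and every other genotype, so each comparison with WT mixes genotype with sex. The 3 libraries of a KO genotype do not all share 1 source.

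The members together took 1.78% to 1.91% of all counts in WT, 1.53% to 1.57% in Blm KO, 1.37% to 1.44% in the libraries labelled Recql KO and 1.53% to 1.80% in double KO. Compared per kilobase of exon, the collagen chaperone gene Serpinh1 was the most abundant member in WT, at 855 ± 26.9 CPM per kb (SD, n = 3). It was followed by Hsp90b1, the ER member of the Hsp90 family, at 658 ± 36.8 CPM per kb, and Calr, the lectin chaperone calreticulin, at 613 ± 24.7. These 2 levels did not differ beyond their spread. The order rests on the joint length of all annotated exons of a gene, which need not be the length of the RNA counted. In CPM alone, Hsp90b1 was above Serpinh1 in WT, at means of 2653 and 2090 CPM. Pdia3 and P4hb, both disulfide isomerases, stood at 539 ± 36.6 and 522 ± 60.0 CPM per kb, again within each other's spread, and Hspa5, which encodes the central ER chaperone BiP, at 391 ± 23.5. Among the sensors, Atf6 was at 9.54 ± 0.675, Eif2ak3 at 7.38 ± 0.936 and Ern1 at 1.58 ± 0.0271 CPM per kb, while the RNA of their effector Xbp1 was at 31.7 ± 2.14. Derl3, a factor of ER-associated degradation, was the lowest member at 0.341 ± 0.217 CPM per kb.

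Many ER chaperone genes are known to carry the ER stress response element (ERSE), to which ATF6 binds together with the CCAAT-binding factor NF-Y, so the promoters of the members were read. A RefSeq window (GRCm38.p6) from 250 bases before to 50 bases after the gene start was at hand for 29 of the 36 members, with more than 1 window for Txndc5 and Derl2. A member counts as holding a motif if any of its windows does, and so does each of the 27025 genes with a window. ERSE, searched as CCAAT and CCACG with 9 bases between them on either strand, was found in 10 of 29 members (34.5%), against 37 of all genes (0.137%). The related ERSE-II, searched as ATTGG and CCACG with 1 base between them, was found in 2 members, Dnajb11 and Herpud1, against 0.0444% of all genes. The core of the unfolded protein response element, searched as TGACGTGG, was found in 1 member, Txndc5, against 0.714% of all genes. The short part CCACG, which both stress elements contain, was in 24 of 29 members against 35.5% of all genes, and CCAAT, which ERSE contains and ERSE-II holds on the other strand, in 21 of 29 members against 41.1% of all genes. A match describes letters only and is no evidence of binding. Only exact matches inside the window count, so a gene without one may still hold an element with a changed letter or farther away.

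The ERSE sites of 4 members are shown first, because their spacing is the feature they share. Each is written 5′ to 3′ on the strand that holds the element, with the CCAAT and CCACG parts in capitals and the 9 bases between them in lower case.
Hspa5 site, chr2:34772025-34772043: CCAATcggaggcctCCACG
Canx site, chr11:50325800-50325818: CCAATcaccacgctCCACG
Dnajc3 site, chr14:118937827-118937845: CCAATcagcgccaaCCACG
Syvn1 site, chr19:6046532-6046550: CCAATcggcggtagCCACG
The 9 bases between the parts differ from gene to gene.

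Longer stretches are shown for 4 ERSE genes whose RNA was lower in the libraries labelled Recql KO, read 5′ to 3′ on the gene's strand and limited to bases before the first annotated exon. Capitals mark the CCAAT and CCACG parts of ERSE, or CGTGG and ATTGG where the element lies on the other strand. Hsp90b1 has 2 elements, which face opposite ways.
Hsp90b1 promoter, chr10:86705510-86705694, minus strand: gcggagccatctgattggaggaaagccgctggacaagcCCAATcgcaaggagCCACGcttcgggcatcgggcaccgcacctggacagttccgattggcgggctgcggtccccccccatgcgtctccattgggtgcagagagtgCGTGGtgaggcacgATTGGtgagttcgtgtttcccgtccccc
Pdia6 promoter, chr12:17266339-17266544, plus strand: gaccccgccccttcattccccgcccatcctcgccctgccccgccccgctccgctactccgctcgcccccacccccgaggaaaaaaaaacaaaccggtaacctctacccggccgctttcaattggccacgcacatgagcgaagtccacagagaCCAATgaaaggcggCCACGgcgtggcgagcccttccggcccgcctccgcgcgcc
Creld2 promoter, chr15:88819396-88819645, plus strand: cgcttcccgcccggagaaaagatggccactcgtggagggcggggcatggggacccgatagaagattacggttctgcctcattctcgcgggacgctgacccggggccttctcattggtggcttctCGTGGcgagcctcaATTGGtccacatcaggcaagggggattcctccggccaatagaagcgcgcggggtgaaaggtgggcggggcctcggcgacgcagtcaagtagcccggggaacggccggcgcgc
Calr promoter, chr8:84846935-84847181, minus strand: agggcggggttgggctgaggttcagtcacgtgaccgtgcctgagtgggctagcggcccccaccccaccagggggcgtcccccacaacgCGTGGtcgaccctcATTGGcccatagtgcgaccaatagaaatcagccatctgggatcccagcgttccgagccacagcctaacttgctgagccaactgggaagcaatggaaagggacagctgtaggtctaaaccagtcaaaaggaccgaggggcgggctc
For contrast, the corresponding stretch is shown for 1 gene that was lower (Serpinh1) and 2 that were higher (Ern1 and Ero1l) without ERSE or ERSE-II in their windows. The Ero1l stretch lies before the RefSeq start but not before the first annotated exon. In the GENCODE annotation the gene begins at 45318771 on the minus strand, so this stretch is inside it. Here capitals mark CCACG, or CGTGG on the other strand, alone.
Serpinh1 promoter, chr7:99353240-99353489, minus strand: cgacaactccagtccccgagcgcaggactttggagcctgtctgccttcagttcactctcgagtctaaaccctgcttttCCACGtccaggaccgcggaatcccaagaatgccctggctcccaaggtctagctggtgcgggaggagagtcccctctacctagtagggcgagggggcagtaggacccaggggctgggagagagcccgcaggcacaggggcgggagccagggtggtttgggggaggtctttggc
Ern1 promoter, chr11:106487853-106488046, minus strand: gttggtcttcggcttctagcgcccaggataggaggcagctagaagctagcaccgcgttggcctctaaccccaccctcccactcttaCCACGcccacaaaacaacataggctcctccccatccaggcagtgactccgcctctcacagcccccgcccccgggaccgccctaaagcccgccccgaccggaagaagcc
Ero1l promoter, chr14:45318573-45318702, minus strand: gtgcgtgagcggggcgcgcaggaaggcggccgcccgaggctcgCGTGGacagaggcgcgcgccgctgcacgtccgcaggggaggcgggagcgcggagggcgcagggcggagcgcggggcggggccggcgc

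The libraries labelled Recql KO had less RNA of most ER folding genes than WT. Of the 36 members, 20 were lower, 3 were higher and 13 were not called, at an edgeR adjusted p under 0.05 over all genes tested. Across all genes, 29.9% were called in this comparison, 15.6% lower and 14.2% higher. The median log2 fold change of the members was -0.32, against -0.01 for all genes tested, and the summed level of the members was 13384 to 14803 CPM against 17478 to 19005 CPM in WT. In 22 members every library labelled Recql KO was below every WT library, as for 25.4% of all genes, and in 3 every one was above, as for 23.9%. The lower genes spanned every role in the list, and the 3 higher genes were Ero1l, Ern1 and Dnajb9. RNA from whole cultures does not tell fewer cells of a type from less RNA per cell.

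**Figure D1:**
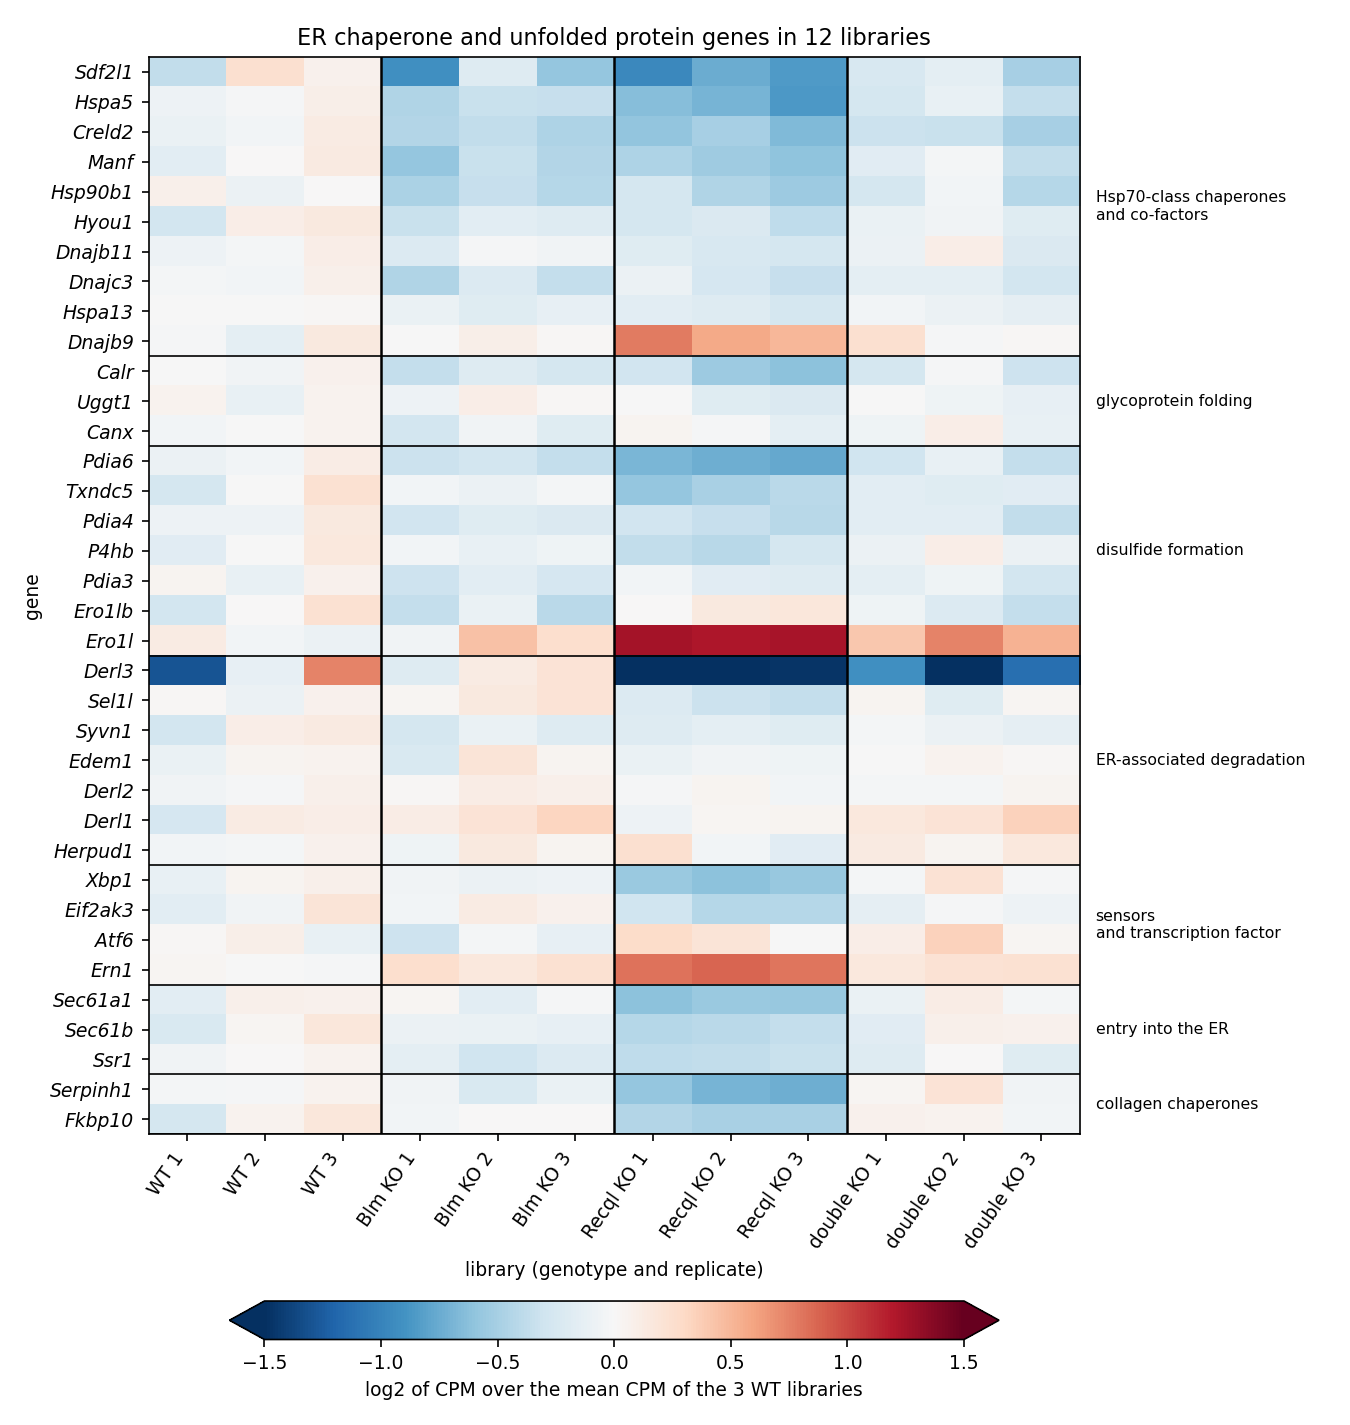
Heat map of the 36 members (rows, grouped by role) in the 12 libraries (columns, by genotype label and replicate number), coloured by the log2 of the CPM over the mean CPM of the 3 WT libraries, with colours ending at 1.5 on either side. The 3 columns labelled Recql KO are lower for 20 called members and higher for Ero1l, Ern1 and Dnajb9.

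Among the 10 genes grouped here as general chaperones and co-factors, which include Hsp70 relatives and Hsp90b1, 6 fell in the libraries labelled Recql KO. Of the others, 1 rose and 3 were not called. Hspa5 (BiP), which holds unfolded chains and keeps the sensors quiet, was at 1568, 1633 and 1763 CPM in WT, 1213, 1310.0 and 1300.0 in the Blm KO libraries, 1061, 1018 and 913 in those labelled Recql KO and 1380.1, 1537 and 1292 in the double KO libraries. All 9 KO libraries were below WT, and those labelled Recql KO were the lowest. The log2 fold change of Hspa5 between the Recql KO label and WT was -0.73 ± 0.095 (SE, edgeR adjusted p = 0.000688). Hsp90b1, which finishes the folding of selected client proteins, was at 2791, 2496 and 2672 CPM in WT, 1912, 2084 and 1977 in the Blm KO libraries, 2211, 1942 and 1815 in those labelled Recql KO and 2218, 2576 and 1969 in the double KO libraries. Its Blm KO and Recql KO-labelled libraries lay in the same range below WT, and the double KO libraries overlapped WT. The difference between the Recql KO label and WT was -0.42 ± 0.11 (SE, edgeR adjusted p = 0.0209) on the log2 scale. Creld2, a small ER protein with disulfide isomerase activity, was at 58.4, 60.9 and 67.9 CPM in WT, 45.9, 48.3 and 45.5 in the Blm KO libraries, 41.5, 44.0 and 39.5 in those labelled Recql KO and 50.0, 49.7 and 44.0 in the double KO libraries. All 9 KO libraries were below WT, with a log2 fold change of -0.58 ± 0.08 (SE, edgeR adjusted p = 0.000856) for the Recql KO label.

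Manf, an ER-resident factor that cells also secrete under stress, was at 159.9, 179.9 and 197 CPM in WT, 119.7, 142 and 132 in the Blm KO libraries, 129.8, 124 and 118 in those labelled Recql KO and 159, 176 and 139 in the double KO libraries. Its Blm KO and Recql KO-labelled libraries were below WT without overlap, and double KO reached into the WT range. The log2 fold change of Manf for the Recql KO label was -0.53 ± 0.11 (SE, edgeR adjusted p = 0.00495). Sdf2l1, a partner of BiP and its J-domain proteins, was a low-level gene at 12.6, 19.1 and 17.0 CPM in WT, 8.61, 14.2 and 10.9 in the Blm KO libraries, 8.34, 9.67 and 9.01 in those labelled Recql KO and 13.8, 14.6 and 11.5 in the double KO libraries. Only the libraries labelled Recql KO lay wholly below WT, by -0.85 ± 0.20 (SE, edgeR adjusted p = 0.00931) on the log2 scale. Hspa13, an ER and microsomal Hsp70 relative, changed least of the called members, at -0.20 ± 0.056 (SE, edgeR adjusted p = 0.022), with 119 to 128 CPM against 141 to 144 CPM in WT.

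Dnajb9 (ERdj4), a J-domain co-chaperone that directs BiP to the IRE1 sensor, went the other way at 51.8, 47.4 and 58.0 CPM in WT, 52.3, 55.7 and 52.9 in the Blm KO libraries, 90.1, 78.0 and 73.8 in those labelled Recql KO and 61.7, 51.6 and 53.1 in the double KO libraries. Every library labelled Recql KO was above all other libraries, which shared 1 range. Its log2 fold change was 0.62 ± 0.10 (SE, edgeR adjusted p = 0.00188). The co-factors Hyou1, Dnajb11 and Dnajc3 were not called, with log2 fold changes of -0.29, -0.23 and -0.23.

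**Figure D2:**
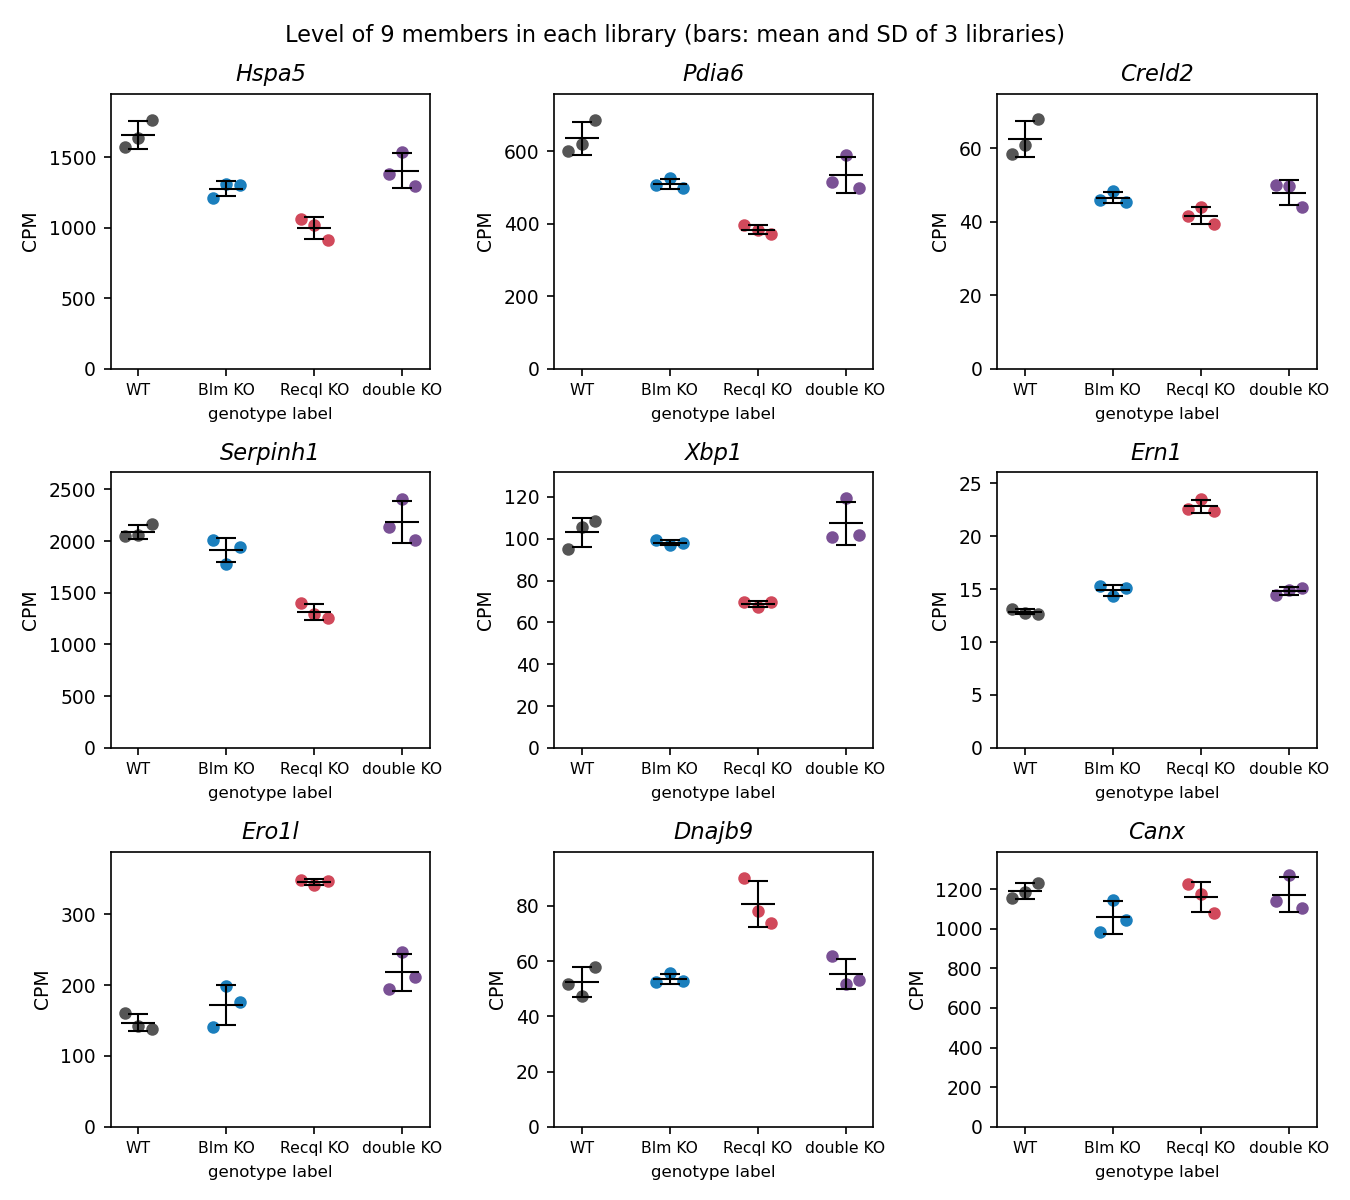
Level in CPM (vertical axes from 0) of 9 members in each library, by genotype label; points are libraries, and bars give the mean and SD of 3 libraries. Hspa5, Pdia6, Creld2, Serpinh1 and Xbp1 are lowest and Ern1, Ero1l and Dnajb9 highest in the libraries labelled Recql KO, while for Canx those libraries overlap WT.

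In the calnexin and calreticulin cycle, which folds proteins carrying N-linked sugars, 1 of 3 members fell. Calr was at 1751, 1701 and 1841 CPM in WT, 1373, 1545 and 1466 in the Blm KO libraries, 1440.2, 1206 and 1149 in those labelled Recql KO and 1469, 1739 and 1417 in the double KO libraries. The Blm KO and Recql KO-labelled libraries were below WT without overlap, and the log2 fold change for the Recql KO label was -0.48 ± 0.11 (SE, edgeR adjusted p = 0.00954). The membrane lectin Canx was at 1078 to 1226 CPM against 1157 to 1233 CPM in WT, with a log2 fold change of -0.04 ± 0.09 (SE, edgeR adjusted p = 0.773). Uggt1, which tags misfolded glycoproteins for another round of folding, was at -0.13 and not called.

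Of the 7 genes for disulfide formation, 4 isomerases fell and the oxidase gene Ero1l rose. Pdia6, an isomerase that also acts on IRE1, was at 600.1, 619.8 and 687 CPM in WT, 508, 525 and 497 in the Blm KO libraries, 396, 382 and 373 in those labelled Recql KO and 516, 589 and 497 in the double KO libraries. All 9 KO libraries were below WT, and those labelled Recql KO formed a separate, lower range. Its log2 fold change for the Recql KO label was -0.73 ± 0.084 (SE, edgeR adjusted p = 0.000413). Txndc5, another thioredoxin-domain isomerase, was at 379.8, 454 and 531 CPM in WT, 444, 429.6 and 446 in the Blm KO libraries, 305, 324 and 343 in those labelled Recql KO and 407, 401 and 405 in the double KO libraries. Only the libraries labelled Recql KO lay outside the WT range, by -0.49 ± 0.11 (SE, edgeR adjusted p = 0.00708) on the log2 scale. Pdia4 and P4hb, the latter also a subunit of collagen prolyl 4-hydroxylase, had log2 fold changes of -0.35 and -0.35, at edgeR adjusted p of 0.0132 and 0.0251.

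Ero1l (now Ero1a), which reoxidises the isomerases, was at 160.1, 143 and 138 CPM in WT, 141, 199 and 175 in the Blm KO libraries, 348, 341 and 347 in those labelled Recql KO and 195, 247 and 212 in the double KO libraries. The libraries labelled Recql KO were above all others, and double KO was above WT without overlap. Ero1l had the largest rise of the members, a log2 fold change of 1.23 ± 0.13 (SE, edgeR adjusted p = 0.00025), or 2.35-fold. Its paralogue Ero1lb (now Ero1b) was at 7.78 to 8.70 CPM against 6.39 to 9.08 CPM and was not called. Pdia3, which works with the 2 lectins, was not called either, at -0.13.

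Among the 7 genes of ER-associated degradation, 2 fell and 5 were not called. Sel1l, the adaptor of the HRD1 ubiquitin ligase, was at 292, 269 and 264 CPM in the libraries labelled Recql KO and 341, 317 and 354 CPM in WT. The groups did not overlap, and the log2 fold change was -0.29 ± 0.086 (SE, edgeR adjusted p = 0.026). Derl3 was barely present, at 0.277, 0.622 and 1.14 CPM in WT, 0.593, 0.738 and 0.784 in the Blm KO libraries, 0.13, 0.207 and 0.246 in those labelled Recql KO and 0.358, 0.0878 and 0.311 in the double KO libraries, beside a limit of 0.0506 to 0.0628 CPM that a count of 3 gives in these libraries. Its log2 fold change was -1.80 ± 0.57 (SE, edgeR adjusted p = 0.0372). Syvn1, which encodes the HRD1 ligase itself, and Herpud1, Edem1, Derl1 and Derl2 had log2 fold changes of -0.18, 0.02, -0.07, -0.00 and -0.00.

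The sensors did not move as a block. Ern1 was at 13.1, 12.8 and 12.7 CPM in WT, 15.3, 14.3 and 15.1 in the Blm KO libraries, 22.6, 23.6 and 22.4 in those labelled Recql KO and 14.4, 14.9 and 15.1 in the double KO libraries. Those labelled Recql KO were far above the rest, and the Blm KO and double KO libraries lay above WT without overlap. The log2 fold change of Ern1 for the Recql KO label was 0.83 ± 0.069 (SE, edgeR adjusted p = 0.000153), the smallest adjusted p among the members. Xbp1, the RNA that IRE1 splices, was at 95.2, 106 and 108 CPM in WT, 99.2, 97.2 and 98.1 in the Blm KO libraries, 69.9, 67.1 and 69.6 in those labelled Recql KO and 101, 119 and 102 in the double KO libraries. The libraries labelled Recql KO were below all others, with a log2 fold change of -0.58 ± 0.077 (SE, edgeR adjusted p = 0.000737). Counts per gene do not separate spliced from unspliced Xbp1 RNA, so IRE1 activity was not measured. Eif2ak3 was at 39.8, 42.8 and 50.7 CPM in WT, 43.4, 48.4 and 46.5 in the Blm KO libraries, 36.1, 33.2 and 33.1 in those labelled Recql KO and 40.4, 44.0 and 42.1 in the double KO libraries. Here too only the libraries labelled Recql KO lay below WT, by -0.38 ± 0.092 (SE, edgeR adjusted p = 0.0114) on the log2 scale. Atf6 was at 89.2, 93.7 and 81.4 CPM in WT, 71.0, 86.4 and 81.1 in the Blm KO libraries, 107, 101 and 87.4 in those labelled Recql KO and 94.2, 112 and 90.0 in the double KO libraries. Its groups overlapped WT, and the log2 fold change for the Recql KO label was 0.16 ± 0.11 (SE, edgeR adjusted p = 0.299).

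All 3 genes for entry into the ER and both collagen chaperones fell. Sec61a1, the pore subunit of the translocation channel, was at 293, 346 and 343 CPM in WT, 335, 294 and 323 in the Blm KO libraries, 214, 223 and 221 in those labelled Recql KO and 304, 353 and 319.9 in the double KO libraries. The libraries labelled Recql KO lay below all others, which shared 1 range, by -0.58 ± 0.088 (SE, edgeR adjusted p = 0.0013) on the log2 scale. Ssr1, a subunit of the translocon-associated complex, was at 401, 416 and 429.9 CPM in WT, 376, 338 and 361 in the Blm KO libraries, 319, 320.4 and 328 in those labelled Recql KO and 362, 416 and 366 in the double KO libraries. Again the lowest values had the Recql KO label, and Blm KO was also below WT without overlap. The log2 fold change of Ssr1 for the Recql KO label was -0.37 ± 0.075 (SE, edgeR adjusted p = 0.00548), and that of the small channel subunit Sec61b was -0.40 ± 0.10 (SE, edgeR adjusted p = 0.0153). Serpinh1 (HSP47), which binds folded procollagen, was at 2046, 2058 and 2165 CPM in WT, 2011, 1780.2 and 1945 in the Blm KO libraries, 1402, 1292 and 1256 in those labelled Recql KO and 2138, 2407 and 2009 in the double KO libraries. The Recql KO label went with the lowest values and a log2 fold change of -0.67 ± 0.093 (SE, edgeR adjusted p = 0.000945). Fkbp10, a prolyl isomerase for procollagen, was at 342, 429 and 464 CPM in WT, 399, 414 and 412 in the Blm KO libraries, 304, 293 and 294 in those labelled Recql KO and 429.9, 426 and 399 in the double KO libraries. Only the libraries labelled Recql KO lay below WT, by -0.47 ± 0.099 (SE, edgeR adjusted p = 0.0064) on the log2 scale.

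Of the 23 calls between the Recql KO label and WT, 16 held whichever of the 6 libraries was left out. The exceptions were Hsp90b1, Pdia4, P4hb, Sel1l, Sec61b, Hspa13 and Derl3, and the count of members called ran from 16 (without WT 3) to 23. In a fit of the 6 libraries rich in Y-linked transcripts, 1 of them labelled Recql KO, the 3 higher genes kept their calls and 0 of the 20 lower genes did (edgeR, smallest adjusted p 0.0502), although all 20 stayed below 0, with a median of -0.45 on the log2 scale. In that fit the lone libraries are assumed to vary like WT.

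By promoter, 6 of the 12 members with ERSE or ERSE-II fell and 0 rose, with a median log2 fold change of -0.32. Of the 17 with a window but neither element, 10 fell and 3 rose, with a median of -0.35, and of the 7 without a window 4 fell, with a median of -0.29. The medians with and without an exact match in the window thus lay close together. ERSE genes were on both sides of the call: Hspa5, Hsp90b1, Calr, Pdia6, Creld2 and Derl3 fell, while Canx, Dnajc3, Syvn1 and Ero1lb were not called.

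**Figure D3:**
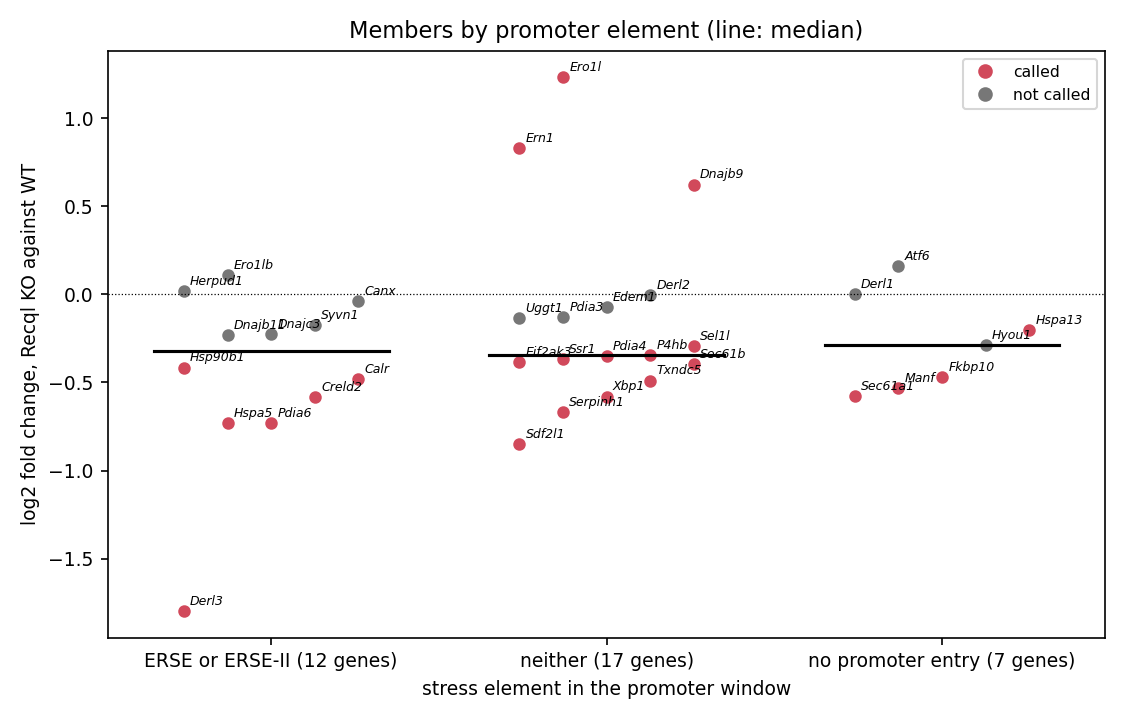
Log2 fold change between the libraries labelled Recql KO and WT (vertical axis) for the members by promoter window (12 with ERSE or ERSE-II, 17 with neither, 7 without a window); points are genes, red where called, and lines are medians. The medians of -0.32, -0.35 and -0.29 lie close together, and the 3 higher genes have neither element in their windows.

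Between Blm KO and WT, 25 of 36 members had a log2 fold change below 0, and 1 passed the test. Creld2 was called lower, at -0.42 ± 0.08 (SE, edgeR adjusted p = 0.0471) on the log2 scale, where 0.753% of all genes were called and 0.39% were called lower. Its call was lost without any 1 of the 6 libraries, at adjusted p of 0.0632 to 0.211. In 13 members every Blm KO library was below every WT library, as for 12.1% of all genes, and 13 members had an unadjusted p under 0.05, as did 18.9% of all genes. The median of the members was -0.12 on the log2 scale, against 0.00 for all genes. By role, 9 of 10 general chaperones and co-factors were below 0, against 49.2% of all genes, with a median of -0.35. For disulfide formation 6 of 7 were below 0, with a median of -0.23. For ER-associated degradation 1 of 7 was below 0, with a median of 0.06. In that role 0 genes reached an unadjusted p under 0.05, and 0 had every Blm KO library above or below every WT library. Of the 4 genes for the sensors and Xbp1, 2 were below 0, with a median of -0.01. Manf was at -0.45 ± 0.11 (SE, edgeR adjusted p = 0.0872), Hspa5 at -0.38 ± 0.094 (SE, edgeR adjusted p = 0.099) and Hsp90b1 at -0.41 ± 0.11 (SE, edgeR adjusted p = 0.118) on the log2 scale. Ern1 was above WT in all 3 Blm KO libraries, as for 12.6% of all genes, by 0.21 ± 0.069 (SE, edgeR adjusted p = 0.147). DESeq2 called 6 members lower, Hspa5, Hsp90b1, Pdia6, Dnajc3, Creld2 and Manf, among 968 genes it called in all, against 112 by edgeR.

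Between double KO and WT, edgeR called 0 of 36 members, where 0.121% of all genes were called. An unadjusted p under 0.05 was reached by 8 members, against 10.8% of all genes, and DESeq2 called 2, Creld2 lower and Ero1l higher. Hspa5, Pdia4, Pdia6, Dnajc3, Creld2 and Hspa13 were below WT in all 3 double KO libraries, as for 6.82% of all genes, and Ern1, Ero1l and Derl1 were above, as for 7.31%, though edgeR called none of them. The log2 fold change was -0.24 ± 0.094 (SE, edgeR adjusted p = 0.401) for Hspa5 and -0.38 ± 0.08 (SE, edgeR adjusted p = 0.1) for Creld2. Ero1l was at 0.57 ± 0.12 (SE, edgeR adjusted p = 0.109). The median of the members was -0.07 on the log2 scale, against 0.01 for all genes.

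Set against the libraries labelled Recql KO, the double KO libraries had more RNA of 13 members, with the collagen chaperones and the entry genes among them. edgeR called 13 members higher and 3 lower, 44.4% of the members, where 24.7% of all genes were called, 13.2% higher and 11.6% lower. In 20 members every double KO library was above every library labelled Recql KO, as for 22.5% of all genes, and in 4 every one was below, as for 21.1%. This comparison shares the Recql KO-labelled libraries with the one against WT, so the 2 sets of calls are not independent. The higher genes were Serpinh1, at 0.73 ± 0.093 (SE, edgeR adjusted p = 0.000662) on the log2 scale, Xbp1, Sec61a1, Hspa5, Fkbp10, Pdia6, Sec61b, Manf, P4hb, Txndc5, Eif2ak3, Sel1l and Ssr1. Xbp1 was at 0.64 ± 0.077 (SE, edgeR adjusted p = 0.000516) and Hspa5 at 0.49 ± 0.094 (SE, edgeR adjusted p = 0.00468). The lower genes were Ero1l, at -0.66 ± 0.12 (SE, edgeR adjusted p = 0.00415), Ern1, at -0.63 ± 0.069 (SE, edgeR adjusted p = 0.000332), and Dnajb9, at -0.54 ± 0.10 (SE, edgeR adjusted p = 0.00434). Hsp90b1, Calr and Canx were not called, at 0.18, 0.29 and 0.02. Leaving out 1 library gave 9 to 12 called members: 10, 9 and 10 without Recql KO 1, 2 and 3, and 10 each without double KO 2 or 3. With the 6 libraries rich in Y-linked transcripts alone, 0 were called. Cargo genes and some markers of other cell types were also higher in double KO than in the libraries labelled Recql KO, beside 13.2% of all genes. Called higher were 12 of 20 cargo genes, 8 of 10 cartilage, 5 of 9 epithelial and mesothelial, 3 of 8 endothelial and 2 of 6 muscle markers, and 0 were lower. Of the macrophage and blood markers 1 of 8 was higher, no larger a share than that of all genes, and 0 lower. The cargo summed to 64218 to 77616 CPM in double KO against 37624 to 46911 CPM, and the cartilage markers to 327 to 993 CPM against 90.1 to 104 CPM. Their part in the level of the members was not tested.

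Between double KO and Blm KO, the comparison of Recql labels on the Blm KO background, edgeR called 0 of 36 members, where 1.96% of all genes were called. An unadjusted p under 0.05 was reached by 4 members, Manf, Atf6, Ero1l and Derl3, against 23.3% of all genes, and DESeq2 called 0. This comparison uses no library of the one between the Recql KO label and WT. Of the 20 members lower in that comparison, 16 were above 0 and 4 below 0 here, where 49.3% of all genes were below 0, with medians of -0.48 there and 0.06 here on the log2 scale. Hspa5 was at 0.14 ± 0.094 (SE, edgeR adjusted p = 0.389), Pdia6 at 0.07 ± 0.083 (SE, edgeR adjusted p = 0.656) and Ern1 at -0.01 ± 0.069 (SE, edgeR adjusted p = 0.944). Xbp1 and Atf6 were above Blm KO in all 3 double KO libraries, as for 12% of all genes, at 0.13 ± 0.077 (SE, edgeR adjusted p = 0.327) and 0.31 ± 0.11 (SE, edgeR adjusted p = 0.14).

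**Figure D4:**
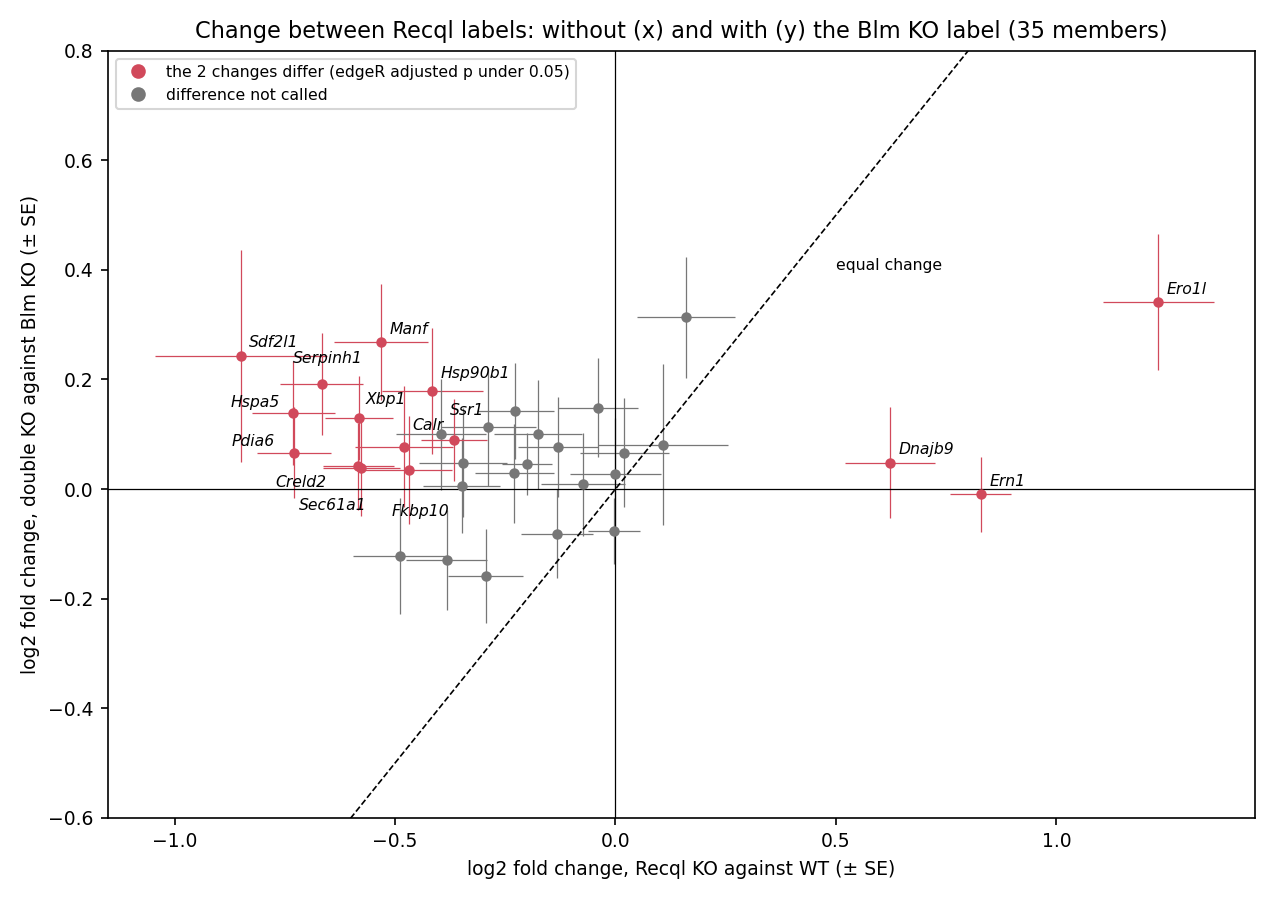
Log2 fold change between the Recql KO label and WT (horizontal axis) and between double KO and Blm KO (vertical axis) for 35 members, with bars of 1 SE and red points where the 2 changes differed; the axes have different scales, the dashed line marks equal change, and Derl3 lies outside the axes at -1.80 and -1.48. The 12 labelled genes on the left lie above the dashed line and the 3 on the right below it.

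The difference between these 2 changes was itself tested, by subtracting the change between WT and the Recql KO label from the change between Blm KO and double KO. It was called for 15 members, 41.7%, where 10.4% of all genes were called: 12 were positive, as for 5.86% of all genes, and 3 negative, as for 4.58%. This test uses the libraries of both comparisons, so its calls are not independent of theirs. The difference was 1.09 ± 0.27 (SE, edgeR adjusted p = 0.0328) on the log2 scale for Sdf2l1, 0.87 ± 0.13 (SE, edgeR adjusted p = 0.00578) for Hspa5 and 0.86 ± 0.13 (SE, edgeR adjusted p = 0.00578) for Serpinh1. For Ero1l it was -0.89 ± 0.18 (SE, edgeR adjusted p = 0.014) and for Ern1 -0.84 ± 0.097 (SE, edgeR adjusted p = 0.00291). Eif2ak3, Pdia4, P4hb, Sel1l, Sec61b, Hspa13, Txndc5 and Derl3 were lower in the libraries labelled Recql KO without a called difference, at 0.14 to 0.50 on the log2 scale. The count was 9 to 16 when 1 library was left out, with 9 without WT 2, Blm KO 3 or Recql KO 2, and 0 with the 6 libraries rich in Y-linked transcripts alone, where the difference for Hspa5 was 0.97 (edgeR adjusted p = 0.165). With a covariate for the level of Y-linked transcripts, 10 of the 15 were called, without Hsp90b1, Calr, Dnajb9, Ssr1 and Fkbp10. In the lists of other cell types and cargo, calls of the same difference were all positive. They covered 6 of 10 cartilage, 5 of 9 epithelial and mesothelial, 4 of 8 endothelial, 1 of 6 muscle and 0 of 8 macrophage and blood markers and 4 of 20 cargo genes. Of 35 genes for ER entry and N-glycosylation, 8 were positive and 0 negative. Of 29 for transport between ER and Golgi, 4 were positive and 1 negative, and of 25 in the PERK and ATF4 arm, 5 and 2. It was called for 0 of 23 further genes of ER-associated degradation. The part of the other cell types and of the cargo in the difference for the members was not tested.

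Other steps of the secretory pathway were read from lists of genes outside the members, in the libraries labelled Recql KO against WT, where 15.6% of all genes were called lower and 14.2% higher. Of 35 genes for ER entry and N-glycosylation, 14 fell and 2 rose, with a median log2 fold change of -0.18 against -0.01 for all genes. Ssr2, a partner of Ssr1, was at 73.8, 68.7 and 67.5 CPM in the libraries labelled Recql KO and 118, 122 and 134 CPM in WT. The groups did not overlap, and its log2 fold change was -0.83 ± 0.10 (SE, edgeR adjusted p = 0.000491). Ostc and Magt1, subunits of the oligosaccharyltransferase, were at -0.67 and -0.55, and Tram1, a membrane protein beside the channel, at -0.48.

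Of 23 further genes of ER-associated degradation, 6 rose and 3 fell, with a median of 0.03, and the 3 that fell are no larger a share than the 15.6% of all genes. Faf2 and Nploc4, which serve the extraction of chains from the membrane, were at 0.26 and 0.30, and Ubac2 was at -0.39 on the log2 scale. Of 29 genes for transport between ER and Golgi, 4 rose and 7 fell, with a median of -0.09, and the 4 that rose are no larger a share than the 14.2% of all genes. Mcfd2, a cargo receptor subunit, was at 0.79 ± 0.11 (SE, edgeR adjusted p = 0.000945), and Golgb1, a Golgi tether, at 0.55. The coat gene Sec24d was at -0.46, and Kdelr1, the receptor that returns chaperones such as BiP to the ER, at -0.33 ± 0.064 (SE, edgeR adjusted p = 0.00406).

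In the arm of the response run by PERK and the transcription factor ATF4, 6 of 25 genes rose and 5 fell, with a median of 0.07. Across all genes, 14.2% were called higher and 15.6% lower. Ddit3, which encodes the stress factor CHOP, was at 52.4, 58.6 and 47.8 CPM in the libraries labelled Recql KO and 24.3, 19.4 and 21.1 CPM in WT. The groups did not overlap, and the log2 fold change was 1.29 ± 0.19 (SE, edgeR adjusted p = 0.00126). Ppp1r15a (GADD34), which restores translation, was at 0.64 ± 0.11 (SE, edgeR adjusted p = 0.00288). The amino acid enzymes Psat1 and Cth were at -0.93 and -1.22, and Atf4 itself at 0.18 ± 0.094 (SE, edgeR adjusted p = 0.166). Of 20 tested genes for collagen folding and modification, 3 fell and 1 rose, with a median of -0.11, shares no larger than the 15.6% and 14.2% of all genes. The cyclophilin B gene Ppib was at -0.38, the prolyl 3-hydroxylation genes Lepre1 and Leprel4 at -0.40 and -0.46, and P4ha2 at 0.32.

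The secretory cargo of the cells and markers of other cell types also differed in the libraries labelled Recql KO. Across all genes, 15.6% were called lower there and 14.2% higher. Of 20 cargo genes, 9 fell and 1 rose, with a median of -0.44, and their sum was 37624 to 46911 CPM against 53443 to 58227 CPM in WT. Eln (elastin) was at 0.945, 1.34 and 3.26 CPM against 51.0, 73.1 and 61.6 CPM in WT, and Col3a1 was at -2.13, Col1a2 at -0.90 and Col6a1 at -0.84 on the log2 scale. Fibroblast markers fell in 3 of 10 and rose in 1, with a sum of 21469 to 26372 CPM against 32110 to 34440 CPM in WT. Cartilage markers fell in 8 of 10 tested, to a sum of 90.1 to 104 CPM against 621 to 1438 CPM in WT. Endothelial markers fell in 5 of 8, to 5.99 to 8.09 CPM against 25.6 to 34.8 CPM, with Cldn5 at 0 in all libraries and Tie1 at no more than 0.0350 CPM. Epithelial and mesothelial markers fell in 5 of 9, to 10.9 to 18.4 CPM against 38.2 to 125 CPM. Macrophage and blood markers were called lower in 2 of 8, with overlapping sums of 4.13 to 6.57 CPM against 6.46 to 17.3 CPM, and Hbb-bs was at 0. Muscle markers were called lower in 2 of 6, but their sum was not lower, at 101 to 122 CPM against 63.3 to 122 CPM. In 2 muscle markers every library labelled Recql KO was above every WT library, as for 23.9% of all genes, and in 3 below, as for 25.4%. The part of these cells and of the cargo in the lower level of the members was not tested.

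**Figure D5:**
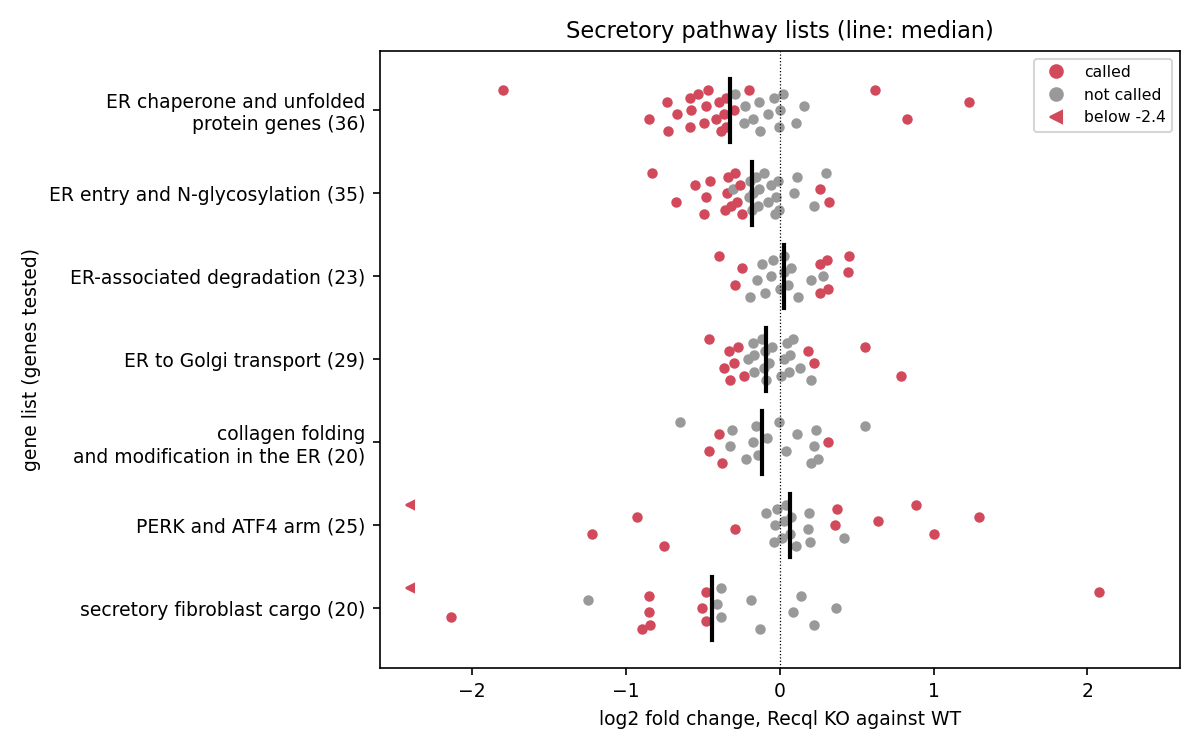
Log2 fold change between the libraries labelled Recql KO and WT (horizontal axis) for the members and 6 other lists of the secretory pathway (rows, with the number of genes tested); points are genes, red where called, lines are medians, and triangles stand for 2 genes below the axis, Fgf21 at -3.77 and Eln at -5.08. The median is -0.32 for the members, -0.18 for ER entry and N-glycosylation and 0.03 for ER-associated degradation.

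The exons of 10 members overlap those of another gene in the GENCODE annotation (Hsp90b1, Manf, Pdia3, Pdia6, Txndc5, Syvn1, Derl2, Eif2ak3, Sec61a1 and Fkbp10), on the same strand for Hsp90b1 and Manf. The library kit keeps strand, but the strand setting of the counting was not given in the sources used here, so reads in these overlaps are uncertain. In 17 members, some libraries held counts that were not whole, a sign that reads were shared out with other genes.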

How the data were processed

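Bowtie2 2.1.0, RSEM 1.2.15 and the mouse build mm10 are named in the submitters' processing notes. The authors deposited 1 table of RSEM expected counts per gene, which need not be whole where a read fits several genes. For the annotation, the strand setting and the read filters, the sources used here give nothing. RNA came from 12 libraries made with a stranded kit for polyadenylated RNA, per the labels' protocols, and all were used.

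Counts were rounded and tested with edgeR 4.0.16 in R 4.3.3: filterByExpr (14876 of 24054 genes, 99.99% of counts), TMM scaling, 1 mean per genotype over all 12 libraries and robust quasi-likelihood F tests with 8 residual degrees of freedom. P-values were adjusted by Benjamini-Hochberg over all 14876 genes, with calls at 0.05. The SE beside a log2 fold change was derived from the test, as the size of the change divided by the square root of F. Levels are TMM-scaled CPM, divided by exon length (GENCODE) where genes are compared. Depth was 47758552 to 59296354 counts per library. Within a genotype, libraries differed by 25.5 to 167 chi-square per degree of freedom, so none is a duplicate.

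The members and all lists were chosen with earlier results of these data known. Values per library are given for the 16 members with the smallest adjusted p and for Hsp90b1 and Atf6, with Derl3 and Sel1l added after their values were seen. From other lists, the 4 called genes with the smallest adjusted p are named (1 is not reported here), and Atf4 and Fgf21 were added after their values were seen. Alternatives were RLE scaling, no filter, CPM above 1 in 3 libraries, DESeq2 1.42.0, the compared genotypes only, a replicate block, a Y-linked covariate, libraries with over 100 CPM of Y-linked transcripts, and leaving out each library. The steps were tested on simulated data.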

Additional observations from a re-analysis of the deposited data

Results flagged for a closer look

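In 15 members the change between Recql labels differed between the Blm KO background and the WT background, by the edgeR test of that difference over all genes. The value is the log2 change between Blm KO and double KO less the log2 change between WT and the libraries labelled Recql KO. Below 0 were Ero1l (-0.89), Ern1 (-0.84) and Dnajb9 (-0.57), whose RNA was raised in the libraries labelled Recql KO and not in double KO to that degree. Above 0 were chaperones and co-factors: Hsp90b1 (0.59), Creld2 (0.62), Manf (0.80), Hspa5 (0.87) and Sdf2l1 (1.09). The lectin chaperone Calr was at 0.56 and the isomerase Pdia6 at 0.80. Xbp1 was at 0.71, and the entry genes Ssr1 and Sec61a1 were at 0.46 and 0.61. The collagen chaperones Fkbp10 and Serpinh1 were at 0.50 and 0.86. Of the 15 calls, 9 held whichever of the 12 libraries was left out: Hspa5, Pdia6, Creld2, Manf, Xbp1, Ern1, Sec61a1, Ero1l and Serpinh1.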

How the results depend on the processing

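No member call reversed under any alternative run. Between the libraries labelled Recql KO and WT, 23 members were called, and 16 to 23 when 1 library was left out, but 3 with the libraries rich in Y-linked transcripts alone. Between double KO and the Recql KO label, 16 were called, 9 to 12 with 1 library left out and 0 with those libraries alone. For the difference of the 2 changes, 15 were called, 9 to 16 with 1 left out and 0 with those libraries alone. With the Y-linked covariate the counts were 20 (Hsp90b1, P4hb and Hspa13 lost), 14 (Sel1l and Txndc5 lost) and 10 (Hsp90b1, Calr, Dnajb9, Ssr1 and Fkbp10 lost), and with DESeq2 they were 24, 18 and 20. Over all genes, the difference of the 2 changes was called for 1554 genes, for 820 with the covariate and for 2625 with DESeq2. The covariate also gave 43 genes against 112 for Blm KO and 43 against 18 for double KO, both against WT. In the 6 libraries rich in Y-linked transcripts the calls were 2 for Blm KO, 1128 for the Recql KO label and 3 for double KO against WT, 0 and 373 for double KO against Blm KO and the Recql KO label, and 5 for the difference. With the compared genotypes alone they were 0 for double KO against WT and 8 against Blm KO. The Blm KO comparison with WT had 1 call, and 0 under no filter, the replicate block, the Y-linked covariate, the compared genotypes alone, the 6 libraries rich in Y-linked transcripts and each left-out library, against 6 with DESeq2. For double KO against WT the count was 0, and 2 with DESeq2. For double KO against Blm KO it was 0 under every alternative run. DESeq2 called more genes in all: 968 against 112 for Blm KO, 338 against 18 for double KO, both against WT, and 1415 against 291 for double KO against Blm KO. The cause was not tested.

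The replicate numbers gave no clear sign of pairing. Of 18 same-numbered pairs, 5 correlated above 0.1 in their deviations from the group means (-0.17 to 0.23), and 4 of 12 libraries correlated best with their own number. With 3 libraries per group, these values cannot exclude a pairing. With the replicate number as a block, the members called were 0 for Blm KO and 0 for double KO against WT, 23 for the Recql KO label against WT, 0 and 18 for double KO against Blm KO and against the Recql KO label, and 14 for the difference. Over all genes, the block moved the calls from 291 to 762 for double KO against Blm KO and from 18 to 50 for double KO against WT. Derl3, at under 2 CPM in every library, is limited by depth.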

Other observations

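Set against the cargo the cells export, the members had these levels in the genotypes. Per 100 CPM of the 20 cargo genes, the 36 members had 30.0 to 34.3 CPM in WT and 30.5 to 36.7 CPM in the libraries labelled Recql KO, ranges that overlap. The value was 19.3 to 20.9 CPM in Blm KO and 20.1 to 28.3 CPM in double KO, both below WT without overlap. In Blm KO the cargo sum was 76198 to 79667 CPM, above WT, and 18 of 20 cargo genes had a log2 fold change above 0, where 49.2% of all genes were below 0. edgeR called 0 of them, and 10 had an unadjusted p under 0.05, as did 18.9% of all genes. This ratio was chosen after the values were seen and was not tested.

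Genes of the PERK and ATF4 arm had log2 fold changes mostly above 0 in the Blm KO and double KO libraries. In double KO against WT, 21 of 25 were above 0, where 48.4% of all genes were below 0, with a median of 0.35 on the log2 scale. An unadjusted p under 0.05 was reached by 15 of them, as by 10.8% of all genes, and edgeR called 0. In Blm KO the median was 0.23 with 18 of 25 above 0, where 49.2% of all genes were below 0. There 13 had an unadjusted p under 0.05, as did 18.9% of all genes, and 1 was called lower.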
